A study of Ovis aries with 6 samples.

Results

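The constitutive proteasome subunit genes are the genes for the standard protein-degrading complex of the cell. They were chosen by name, as features with a gene name of the PSMA, PSMB, PSMC or PSMD series followed by a number, without the immunoproteasome genes PSMB8, PSMB9 and PSMB10. This gave 36 genes of 26067 features, and 34 of them had enough counts for a test. Full-length cDNA, amplified by PCR, from tissue labelled hypothalamus was read on a Nanopore sequencer. Small-tailed Han sheep (3 samples, HP) carry the submitters' label of high reproduction and Wadi sheep (3 samples, LP) that of low reproduction. Breed and reproductive class form the same division, no treatment was applied according to the sources used here, and age and sex are not given there. The letter in the table columns differs from that in the sample titles, so only the number links a column to its sample, and every statement on HP or LP rests on that match.

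The proteasome degrades proteins that carry ubiquitin chains. Its core particle is a barrel of outer alpha rings, encoded by the PSMA genes, and inner beta rings, encoded by the PSMB genes, of which PSMB5, PSMB6 and PSMB7 encode the catalytic subunits. A regulatory particle caps the barrel. Its base holds a ring of ATPases encoded by the PSMC genes, which unfold the substrate and feed it into the core, and its lid, made of PSMD products, removes the ubiquitin chain. In assembled particles the subunits of a ring are present in equal numbers, and in neurons the complex is known for its part in synaptic protein turnover.

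The libraries held 1981644 to 2732911 counts, so that the upper limit behind a count of 0, which is 3 counts, stood for 1.10 to 1.51 CPM, a count scaled to a library of common size. The label of the tissue was checked against marker genes. GNRH1 and KISS1 had no count in any library, OXT, AVP, NPY and GHRH had none in HP, and CRH and TRH had none in LP. Summed hypothalamic peptide markers reached 95.6 to 149 CPM in HP and 4.38 to 9.59 CPM in LP. Only 1 of the 10 peptide genes had enough counts for a test (log2 fold change 11.05), so this sum does not describe the list as a whole. Summed anterior pituitary markers reached 47200 to 300000 CPM in LP and 49.0 to 141 CPM in HP. In HP, TSHB, POU1F1 and PITX1 were among the markers at 0. Summed cerebellar markers reached 2490 to 2700 CPM in HP and 17.8 to 34.8 CPM in LP, and summed neuronal markers 5100 to 5530 CPM in HP and 427 to 879 CPM in LP. These lists moved with the groups. Single libraries also stood apart in other lists: choroid plexus markers summed to 4530 CPM in HP replicate 3 and 7370 CPM in LP replicate 3 against 7.85 to 113 CPM in the other libraries, and oligodendrocyte markers to 3220 CPM in LP replicate 3 against 6.13 and 1.65 CPM in the other LP libraries. Connective tissue markers stood at 1440, 163 and 1040 CPM in LP and 83.2 to 204 CPM in HP. The part of these lists in the results on proteasome genes was not tested. In bulk tissue, fewer cells of a type and less RNA per cell cannot be told apart.

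Proteasome subunit genes differed between the groups in both directions, and most differences were small. Of the 34 members tested, 9 were higher in LP and 2 higher in HP, and 23 did not pass an adjusted p of 0.05 in edgeR (quasi-likelihood, Benjamini-Hochberg over all 13078 genes tested). Over all genes tested, 24.1% were higher in LP and 27.1% higher in HP, 51.2% in either direction. The share of members higher in LP, 26.5%, was near that background, and the share higher in HP, 5.88%, was below it. The median log2 fold change, HP minus LP, was -0.33 over the members and 0.02 over all genes tested. Folds of at least 2 were reached by 5 members, all higher in LP: PSMD10, PSMD6, PSMA2, PSMC6 and PSMD2. The members higher in HP were PSMB5 and PSMC5. The values of the groups did not overlap in 21 members (61.8%), 16 with LP above HP and 5 with HP above LP, where all genes tested gave 29.0% and 33.9%, together 62.9%.

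**Figure D1:**
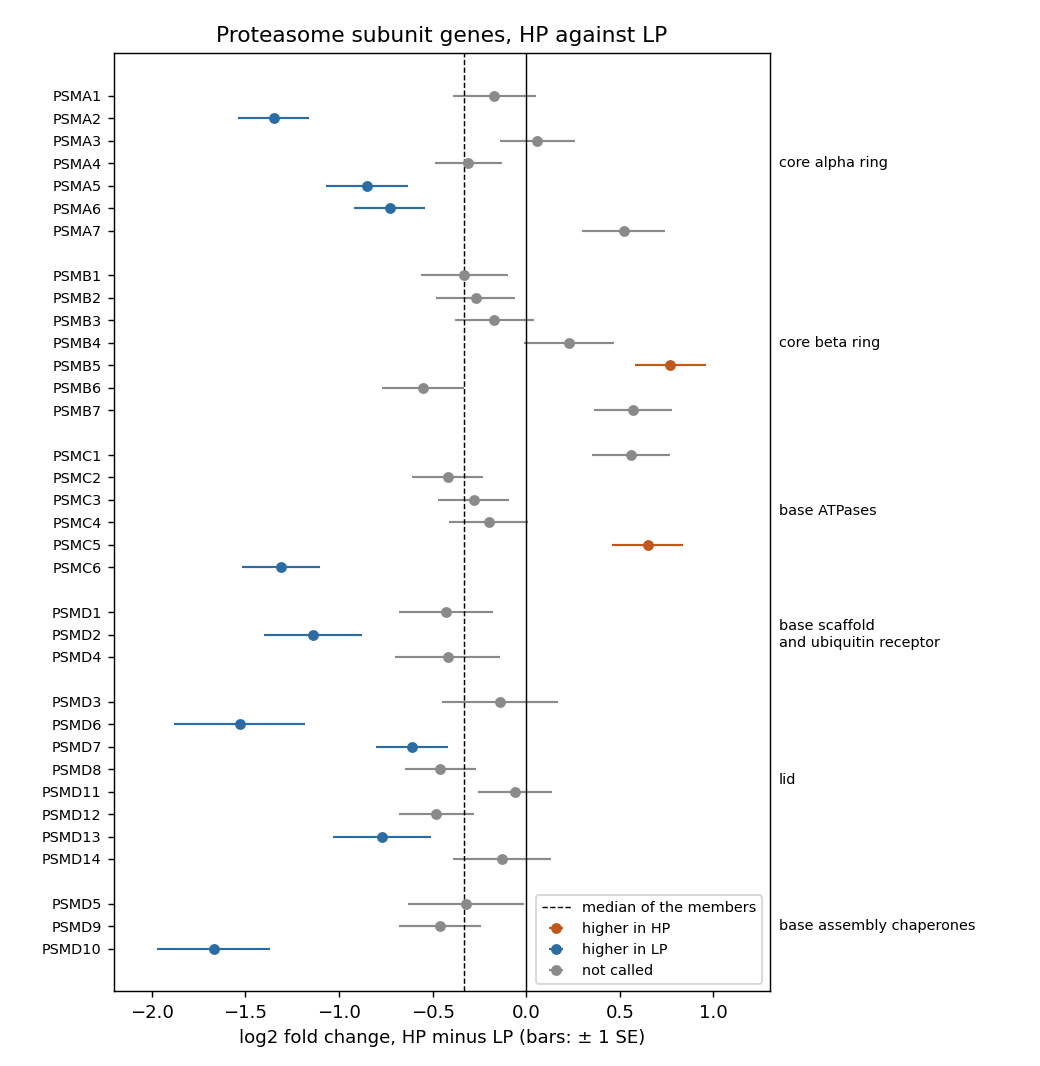
Log2 fold change, HP minus LP, of the 34 tested subunit genes by place in the complex, with bars of 1 SE and the median of the members (-0.33) as a dashed line. With TMM factors all 8 lid genes lie left of 0 (PSMD3, PSMD11 and PSMD14 turn with library totals), while the beta ring and the ATPase ring hold genes on both sides.

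These counts changed when 1 library was left out, which also leaves fewer samples for the test. The share of all genes called in those fits is not given here. In them the median log2 fold change of the members ran from -0.44 to -0.31. Without HP replicate 2, 5 members were higher in LP and 0 in HP by the same edgeR test. Of the HP calls, 1 was left without HP replicate 1, HP replicate 3 or LP replicate 1. The calls of PSMD10, PSMD6, PSMA2, PSMC6 and PSMD2 held without each of the 6 libraries and in the 12 other settings tried.

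In the alpha ring, which forms the gate of the core particle, 3 of 7 genes were higher in LP and 0 in HP. That was 42.9% and 0%, where all genes tested gave 24.1% and 27.1%, and these few genes were not tested against those shares. The median log2 fold change was -0.31. PSMA2 had 123, 128 and 141 CPM in HP replicates 1, 2 and 3 and 298, 343 and 362 CPM in LP replicates 1, 2 and 3. All LP libraries lay above all HP libraries, and the level was 2.55-fold higher in LP (log2 fold change -1.35 ± 0.19 SE, adjusted p = 0.00182 in edgeR, adjusted after Benjamini-Hochberg). PSMA5 was 1.81-fold and PSMA6 1.66-fold higher in LP (adjusted p = 0.0143 and 0.0164 by the same edgeR test). Both calls were lost without HP replicate 1 (adjusted p = 0.0564 and 0.0646) and without HP replicate 2 (0.0647 and 0.0676), with library totals (0.0631 and 0.105) and with no filter on low counts (0.0629 and 0.0961). PSMA7, which had more counts than any other member, stood at 887, 1000 and 791 CPM in HP and 664, 639 and 565 CPM in LP. HP lay above LP throughout, but the log2 fold change of 0.52 ± 0.22 SE missed the threshold of the edgeR test (adjusted p = 0.0795). It passed with library totals (adjusted p = 0.024), no filter (0.048) and limma-voom (0.0429), and turned to -0.24 with deposited TPM. PSMA1, PSMA3 and PSMA4 had log2 fold changes of -0.17, 0.06 and -0.31 and were not called.

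In the beta ring 1 of 7 genes was higher in HP and 0 in LP, with a median of -0.17. That was 14.3% and 0%, where all genes tested gave 27.1% and 24.1%. PSMB5, which encodes the subunit with chymotrypsin-like activity, had 226, 259 and 219 CPM in HP and 125, 145 and 145 CPM in LP. All HP libraries lay above all LP libraries, a 1.70-fold difference (log2 fold change 0.77 ± 0.19 SE, adjusted p = 0.0132 in edgeR, adjusted after Benjamini-Hochberg). The call was lost without HP replicate 2 (adjusted p = 0.0659), with deposited TPM (log2 fold change 0.00, adjusted p = 0.99 by limma) and with TPM scaled by median ratios (0.0826). PSMB7, the trypsin-like subunit, had 170, 174 and 153 CPM in HP and 105, 96.4 and 133 CPM in LP. PSMB6, the caspase-like subunit, had 75.7, 93.0 and 86.2 CPM in HP and 99.0, 139 and 136 CPM in LP.

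PSMB7 thus lay higher in every HP library and PSMB6 higher in every LP library. Their log2 fold changes were 0.57 ± 0.21 SE and -0.55 ± 0.22 SE, and both missed the threshold of the edgeR test (adjusted p = 0.0506 and 0.0675). PSMB7 passed it without LP replicate 3 (adjusted p = 0.0196) and in 5 other settings (0.0275 to 0.0459), and PSMB6 without LP replicate 1 (adjusted p = 0.0394) and in 5 other settings (0.00881 to 0.0488). The ratio of PSMB7 to PSMB6 counts within a library, which needs no scaling between libraries, was 2.25, 1.87 and 1.78 in HP and 1.06, 0.691 and 0.981 in LP. The groups did not overlap in this ratio, which was chosen after the values had been seen and has no test. The other beta subunit genes, PSMB1, PSMB2, PSMB3 and PSMB4, are structural, had log2 fold changes between -0.33 and 0.23, and overlapped between the groups. The deposited annotation names 2 further loci as PSMB6-like. Their log2 fold changes, 2.54 and 1.17, ran opposite to that of PSMB6, and the second was not called. The sequences of these loci were not compared, so the PSMB6 counts are uncertain to the extent that reads were divided among them. The PSMB6 values and ratios leave these loci out, so the separation of the groups in PSMB6 rests on counting them apart.

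**Figure D2:**
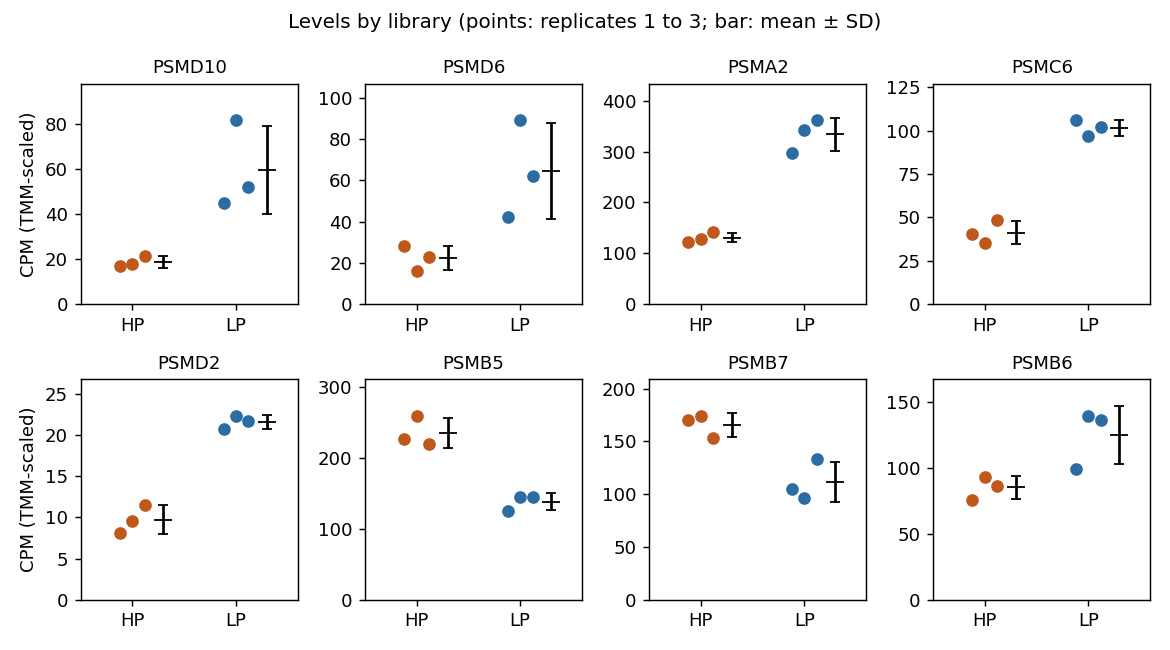
CPM, scaled with TMM factors, of 8 subunit genes in each library, with the mean and SD of each group. PSMD10, PSMD6, PSMA2, PSMC6, PSMD2 and PSMB6 are higher in each LP library, PSMB5 and PSMB7 in each HP library.

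The ATPase ring of the base was divided as well, with 1 of 6 genes higher in each group and a median of -0.24. That was 16.7% in each direction, where all genes tested gave 24.1% higher in LP and 27.1% higher in HP. PSMC6 had 40.1, 35.0 and 48.2 CPM in HP and 106, 96.9 and 102 CPM in LP, and was 2.47-fold higher in LP (log2 fold change -1.31 ± 0.21 SE, adjusted p = 0.00266 in edgeR, adjusted after Benjamini-Hochberg). PSMC5 had 217, 231 and 211 CPM in HP and 131, 161 and 129 CPM in LP, and was 1.57-fold higher in HP (log2 fold change 0.65 ± 0.19 SE, adjusted p = 0.0260 by the same edgeR test). These ATPases sit in the same ring, and neither overlapped between the groups. The ratio of PSMC5 to PSMC6 counts was 5.42, 6.61 and 4.37 in HP and 1.24, 1.66 and 1.26 in LP, a pair chosen after the values had been seen. PSMC1 had 105, 91.3 and 76.4 CPM in HP and 56.2, 69.4 and 58.8 CPM in LP. It lay higher in HP in every library but was not called (log2 fold change 0.56 ± 0.21 SE, adjusted p = 0.0609 by the edgeR test), and passed with library totals (0.0139) and with no filter (0.0396) but turned to -0.12 with deposited TPM. PSMC2, PSMC3 and PSMC4 had log2 fold changes of -0.42, -0.28 and -0.20. The PSMC5 call was lost without HP replicate 1 (adjusted p = 0.0687), HP replicate 2 (0.101), HP replicate 3 (0.0632) or LP replicate 1 (0.0724), and with upper quartile scaling (0.0541). With deposited TPM its direction turned (log2 fold change -0.10, adjusted p = 0.766 by limma), and with TPM scaled by median ratios the call was lost (adjusted p = 0.162).

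Of the other base genes, PSMD2, which encodes a scaffold that binds ubiquitin-like domains, had 8.09, 9.61 and 11.5 CPM in HP and 20.7, 22.3 and 21.7 CPM in LP. It was the member with the fewest counts among those tested, 20 to 45 per library. The difference was 2.20-fold toward LP (log2 fold change -1.14 ± 0.26 SE, adjusted p = 0.0103 in edgeR, adjusted after Benjamini-Hochberg). PSMD1, the other large scaffold, and PSMD4, a ubiquitin receptor, overlapped between the groups and were not called (log2 fold changes -0.43 and -0.42). PSMD4 ranged from 91.2 to 187 CPM within LP and passed the threshold without LP replicate 2 (adjusted p = 0.0488).

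All 8 lid genes had negative log2 fold changes with TMM factors, though not with library totals or TPM. With TMM factors they ran from -1.53 to -0.06 with a median of -0.47, and 3 passed the test. That was 37.5% of the lid higher in LP and 0% higher in HP, where all genes tested gave 24.1% and 27.1%. PSMD6 had 27.9, 16.1 and 22.7 CPM in HP and 42.4, 89.1 and 61.9 CPM in LP. Each LP library was above each HP library, and LP replicate 2 was the highest. The difference was 2.89-fold (log2 fold change -1.53 ± 0.35 SE, adjusted p = 0.00948 in edgeR, adjusted after Benjamini-Hochberg). PSMD7, the partner of the deubiquitinase subunit PSMD14, was 1.53-fold and PSMD13 1.70-fold higher in LP (adjusted p = 0.0302 and 0.0412 by the same edgeR test). PSMD7 lost its call in each fit that left out an HP library (adjusted p = 0.0912, 0.0901 and 0.0941), and PSMD13 without HP replicate 2, HP replicate 3 or LP replicate 2 (adjusted p = 0.149, 0.127 and 0.0615). Both also lost their calls with library totals (adjusted p = 0.167 and 0.135) and with no filter (0.184 and 0.146). PSMD14, which cuts the ubiquitin chain from the substrate, had 26.3, 32.3 and 28.5 CPM in HP and 23.5, 36.8 and 34.9 CPM in LP, so that the groups overlapped. PSMD3, PSMD8, PSMD11 and PSMD12 were not called. PSMD8 and PSMD12 were higher in every LP library, and passed the threshold with deposited TPM (adjusted p = 0.0122 and 0.0214 by limma). PSMD8 also passed with upper quartile scaling (adjusted p = 0.0457) and PSMD12 without LP replicate 3 (adjusted p = 0.0324). The negative sign of the lid depended on the scaling: with library totals alone PSMD3, PSMD11 and PSMD14 had log2 fold changes of 0.07, 0.18 and 0.13, and with deposited TPM PSMD14 had 0.24. PSMD3 stood at 0.16 without LP replicate 3 and PSMD11 at 0.01 without LP replicate 1.

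PSMD5, PSMD9 and PSMD10 carry subunit names but encode chaperones that help to assemble the ATPase ring and are absent from the finished particle. PSMD10, also known as gankyrin, had 16.6, 17.8 and 21.4 CPM in HP and 44.7, 81.4 and 51.9 CPM in LP. It had the largest fold of the members, 3.18-fold higher in LP, with LP replicate 2 the highest library (log2 fold change -1.67 ± 0.30 SE, adjusted p = 0.00371 in edgeR, adjusted after Benjamini-Hochberg). PSMD9 and PSMD5 had log2 fold changes of -0.46 and -0.32 and were not called. The members known from single tissues were nearly absent. PSMA8, an alpha subunit of germ cells, had 2 counts in HP replicate 3 and 1 each in LP replicates 2 and 3, and PSMB11, the beta subunit of the thymus, had 1 count in HP replicate 3 and none elsewhere.

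Together the members took 0.400% to 0.502% of the counts of a library. Their share of all counts was 0.454% (95% Wilson interval 0.446 to 0.463), 0.502% (0.494 to 0.510) and 0.499% (0.490 to 0.507) in HP and 0.444% (0.436 to 0.453), 0.400% (0.392 to 0.408) and 0.500% (0.490 to 0.509) in LP. The groups overlapped. As summed CPM this was 4851 ± 265 in HP and 4480 ± 498 in LP (SD, n = 3). A few abundant transcripts set part of this value, since 10 genes above 1% of any library took 8.95% to 9.88% of the counts in HP and 14.7% to 35.4% in LP. With these genes left out of the total, the summed CPM was 5352 ± 298 in HP and 5955 ± 204 in LP (SD, n = 3), and the order of the groups turned. By library it was 5008, 5512 and 5536 in HP and 5823, 6190 and 5853 in LP. The groups did not overlap on this total. The lid alone then stood at 698.9, 713.7 and 755.8 summed CPM in HP and 974.5, 1091 and 1045 in LP. The core particle stood at 3453 ± 250 and 3518 ± 101 (SD, n = 3).

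The members varied little among the libraries of a group. Their median coefficient of variation was 11.4% in HP and 12.3% in LP, where all genes tested gave 19.0% and 32.7%. In LP the coefficient ran from 1.77% (PSMC3) to 40.7% (PSMD3), and in HP from 3.85% (PSMD5) to 27.2% (PSMD13). Lower counts carry more sampling noise, and the members were not set against genes of like counts.

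Levels of different genes were compared on the deposited scale of TPM, which divides by a transcript length that the sources used here do not give. PSMA7 had the highest mean TPM in both groups, 242 in HP and 289 in LP, and PSMD2 the lowest of the tested members, 0.713 and 2.61. Within the alpha ring, the gene with the highest mean TPM (PSMA7) stood 15.8 times above the lowest (PSMA5) in HP and 6.28 times in LP. In the beta ring the span was 2.67 times in HP, from PSMB2 to PSMB4, and 1.96 times in LP, from PSMB2 to PSMB1. The lid spanned 14.8 times in HP and 10.9 times in LP. The ATPase ring spanned 6.65 times in HP, from PSMC6 to PSMC5, and 6.01 times in LP, from PSMC1 to PSMC2. PSMD14 had the highest mean TPM of the lid in HP, 57.0, and so sets the upper end of that span. By CPM it stood at a mean of 29.0 in HP, below PSMD7 at 227. In the order of mean TPM, PSMA2 was in place 10 in HP and place 2 in LP, and PSMD5 in place 6 in HP and place 23 in LP. PSMD5 and PSMD14 had the fewest counts per TPM of the tested members (1.75 and 1.37), which limits their places in this order. Neighbours in this order often lay within their SDs, for example PSMB4 at 71.2 and PSMB7 at 70.6 in HP.

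**Figure D3:**
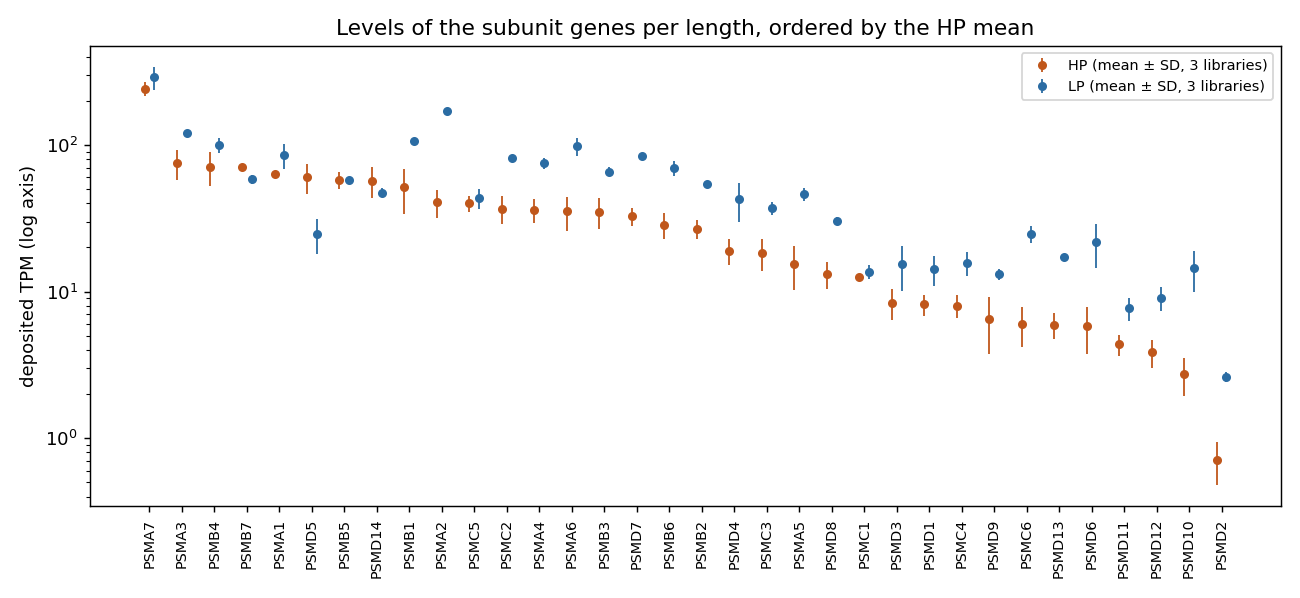
Deposited TPM (log axis) of the 34 tested subunit genes, mean and SD over 3 libraries of each group, ordered by the HP mean. PSMA7 is highest in both groups, and nearly all LP points lie above the HP points, with PSMD5, PSMD14, PSMB7 and PSMB5 below.

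The deposited TPM gave another division of directions than the counts. With limma on log2(TPM + 1), 21 members were higher in LP and 1, PSMD5, higher in HP, where all genes tested gave 32.6% and 18.5%. The median of the members was -1.0 on that scale and that of all genes -0.31. The TPM that a count stood for differed between libraries, by a factor that many but not all genes shared. Relative to HP replicate 1 this library factor was 0.921 and 1.11 in HP replicates 2 and 3 and 2.41, 2.44 and 2.27 in LP replicates 1, 2 and 3, and 24 of the 34 members followed this factor within 0.02 on the log2 scale in every library. Among 5920 genes with enough counts in each library, 49.7% to 55.7% followed it in a given library. After each library's TPM had been divided by its median ratio, an alternative chosen after seeing the data, 12 members were higher in LP and 3 higher in HP by limma. The share over all genes tested is not given here for this setting, so these counts have no background.

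**Figure D4:**
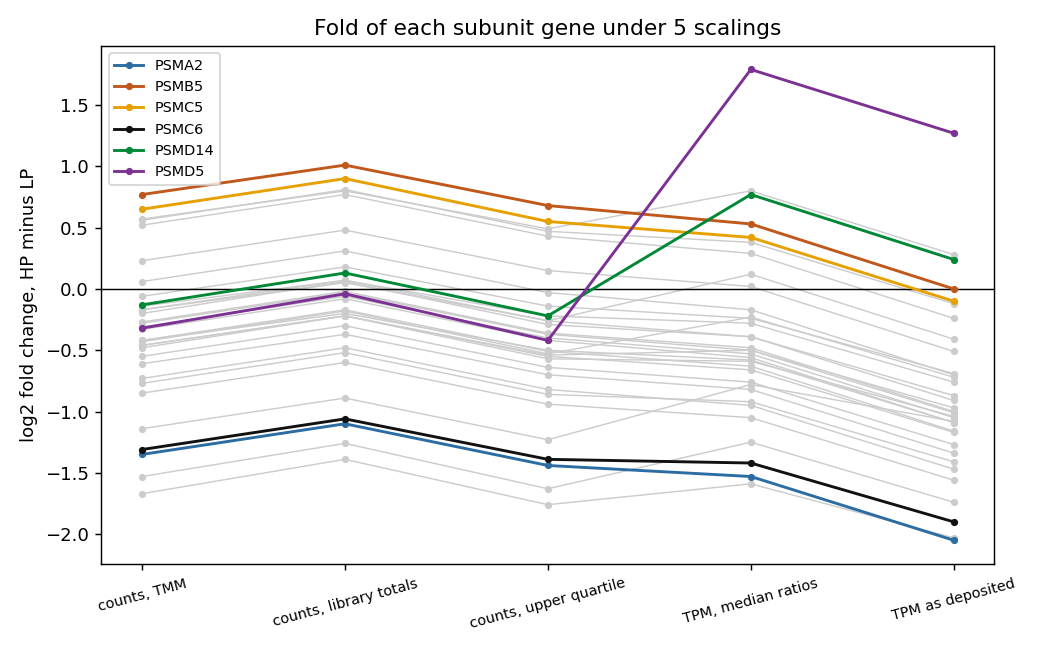
Log2 fold change, HP minus LP, of each of the 34 subunit genes under 5 scalings, with lines joining the values of a gene. The lines run parallel across the count scalings, and PSMA2 and PSMC6 are lowest throughout among the named genes, while PSMD5 and PSMD14 rise under both TPM settings.

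Count scalings multiply all genes of a library alike and so leave the distances between members nearly as they are, whereas TPM can move them. Relative to the median of the members on the log2 scale, PSMB5 stood at 1.09 with TMM factors and 1.01 with deposited TPM, PSMA2 at -1.03 and -1.05 and PSMC6 at -0.98 and -0.90. Other members moved more, among them PSMD2 from -0.81 to -0.08, PSMD6 from -1.21 to -0.73, PSMA1 from 0.15 to 0.59, PSMD14 from 0.20 to 1.25 and PSMD5 from 0.00 to 2.27. The ratio of PSMB5 to PSMA2 counts within a library was 1.83, 2.02 and 1.56 in HP and 0.418, 0.422 and 0.400 in LP. Both genes encode core particle subunits, and the pair was chosen after its values had been seen.

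PSMD5 moved most. Its counts overlapped between the groups, at 69, 80 and 87 in HP and 55, 99 and 56 in LP, whereas its TPM stood at 75.8, 47.8 and 57.6 in HP and 28.5, 28.4 and 17.1 in LP. The TPM per count of PSMD5, relative to the common factor of the library and to HP replicate 1, was 0.590 and 0.541 in HP replicates 2 and 3 and 0.195, 0.107 and 0.122 in LP. For PSMD14 it was 0.851 and 1.08 in HP and 0.588, 0.366 and 0.430 in LP. What set these factors was not tested. PSMD5 and PSMD14 also had the fewest counts per TPM, 1.75 and 1.37, where the other tested members ranged from 4.36 (PSMB3) to 30.8 (PSMD12). PSMA1, PSMB7, PSMD1 and PSMD6 had values between 0.601 and 0.763 in LP on the same measure, relative to the library factor and to HP replicate 1.

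The immunoproteasome genes encode catalytic subunits that replace PSMB5, PSMB6 and PSMB7 in immune cells and under interferon. PSMB8 had 8.09, 12.7 and 12.2 CPM in HP and 117, 54.4 and 67.2 CPM in LP, a 7.18-fold difference, and PSMB9 was 3.92-fold higher in LP (adjusted p = 0.00142 and 0.00809 in edgeR, adjusted after Benjamini-Hochberg). PSMB10 was not called (1.64-fold, adjusted p = 0.0537) and passed in 9 of 18 alternatives, among them DESeq2 (adjusted p = 0.0478), upper quartile scaling (0.0377) and the fit without LP replicate 1 (0.0246). Over its alternatives the adjusted p ranged from 0.0105 to 0.189. The ratio of PSMB8 to PSMB5 counts was 0.0358, 0.0490 and 0.0559 in HP and 0.937, 0.376 and 0.465 in LP. Summed over the 3 pairs, the ratio of immunoproteasome to standard catalytic counts was 0.104, 0.131 and 0.156 in HP and 0.694, 0.436 and 0.422 in LP. The groups did not overlap. An exact permutation test of 3 against 3 cannot give a two-sided p below 0.1, so these ratios are given without a test. Summed microglia markers stood at 38.6, 46.1 and 28.0 CPM in HP and 75.7, 147 and 228 CPM in LP. Within LP, replicate 1 had the lowest of these sums and the highest PSMB8. None of the 6 markers was at 0 in either group, and their part in this result was not tested.

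**Figure D5:**
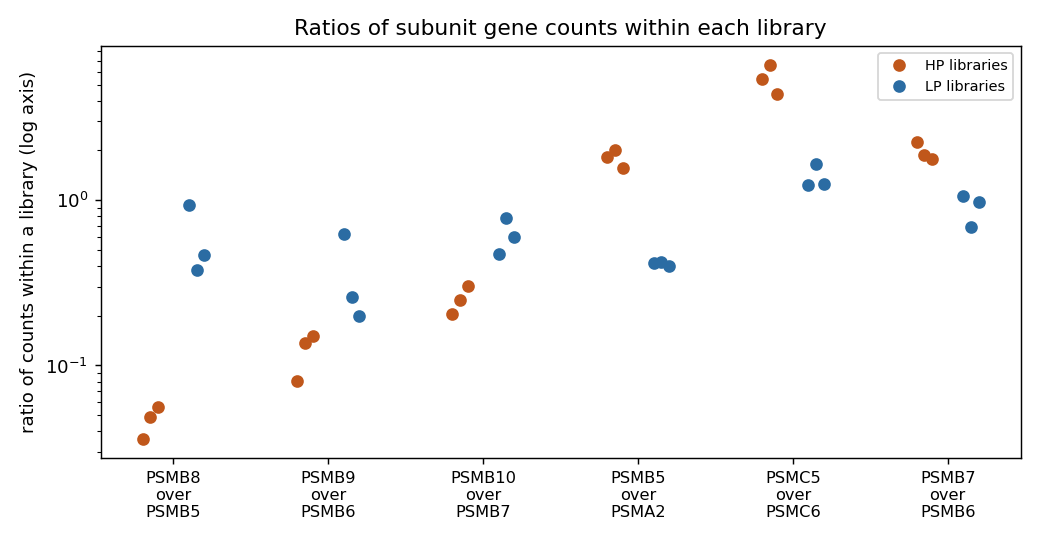
Ratios of counts between pairs of subunit genes within each library (log axis), HP and LP libraries side by side. In none of the 6 pairs do the groups overlap: the ratios of immunoproteasome to standard subunits are higher in LP, the other ratios higher in HP. The ratios without immunoproteasome genes were chosen after their values had been seen. Except for PSMB9 over PSMB6, the genes of each pair lay apart in opposite directions, so their ratio could not overlap.

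Genes that act around the proteasome were mostly higher in LP where they were called. In 7 lists of such genes, 19 of 33 tested genes were higher in LP and 1 higher in HP (57.6% and 3.03%, where all genes tested gave 24.1% and 27.1%), with a median log2 fold change of -0.80. All 4 tested chaperones of core assembly were higher in LP, namely PSMG4 (5.11-fold), PSMG2 (2.54-fold), PSMG1 (2.06-fold) and PSMG3 (1.74-fold), with adjusted p from 6.40e-04 to 0.0396 in edgeR, adjusted after Benjamini-Hochberg. PSMG4 had 15.8, 19.2 and 21.7 CPM in HP and 98.5, 104 and 88.4 CPM in LP. PSMG2, which had 1.37 to 8.81 CPM, lost its call without HP replicate 1, HP replicate 2, LP replicate 1 or LP replicate 2 (adjusted p = 0.0920, 0.0929, 0.0793 and 0.0651), and PSMG3 in each fit that left out an HP library (0.0779, 0.0767 and 0.0504). Both also lost their calls with library totals (adjusted p = 0.0833 and 0.103) and with no filter (0.113 and 0.0969), while PSMG4 and PSMG1 kept theirs in all 18 alternatives.

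Of the activators and the inhibitor, PSME1 and PSME2, which form the interferon-inducible cap, were 1.69-fold and 3.71-fold higher in LP, PSME4, a nuclear activator, 1.70-fold and PSMF1, the inhibitor gene, 1.69-fold (adjusted p from 0.00476 to 0.0314 by the edgeR test). The call of PSME2 held without each library. PSME1 and PSME4 lost theirs when any HP library or LP replicate 1 was left out (adjusted p from 0.0620 to 0.0844 and from 0.0606 to 0.101), and PSMF1 without HP replicate 1 or 3 (0.0589 and 0.0512). With library totals PSME1, PSME4 and PSMF1 were not called (adjusted p = 0.103, 0.123 and 0.0935), nor with no filter (0.107, 0.138 and 0.088), and PSME4 was not called with deposited TPM (0.103) either. PSME3 and ADRM1, a ubiquitin receptor of the base, were not called (log2 fold changes -0.28 and -0.41). SEM1 and POMP are not analysed here under these names.

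NFE2L1, which encodes the transcription factor known to raise proteasome genes when the proteasome is inhibited, had 4.05, 6.52 and 8.83 CPM in HP and 21.6, 17.6 and 22.2 CPM in LP. It was 3.13-fold higher in LP (adjusted p = 0.00719 in edgeR, adjusted after Benjamini-Hochberg). Its relative NFE2L2, the regulator of the oxidative stress response, was 4.13-fold higher in LP (adjusted p = 0.0118 by the same edgeR test). Among shuttle factors and proteasome-bound enzymes, 4 of 11 tested genes were higher in LP and 1 in HP. That was 36.4% and 9.09%, where all genes tested gave 24.1% and 27.1%. ZFAND5, a proteasome-binding zinc finger gene, was 10.6-fold and PAAF1, a gene for an ATPase-binding factor, 6.77-fold higher in LP, whereas RAD23B, a ubiquitin shuttle gene named after its value had been seen, was 1.58-fold higher in HP. The RAD23B call was lost when any HP library or LP replicate 1 was left out (adjusted p from 0.0502 to 0.0896 by edgeR). USP14, a proteasome-bound deubiquitinase gene, was not called (log2 fold change -0.48).

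Of the 6 ubiquitin and E1 genes, 3 were higher in LP. They included RPS27A (2.86-fold), which encodes ubiquitin fused to a ribosomal protein (adjusted p = 0.00816 in edgeR, adjusted after Benjamini-Hochberg). UBB, a polyubiquitin gene, was not called. It stood at 611, 727 and 1410 CPM in HP and 1780, 1720 and 1520 CPM in LP, with HP replicate 3 near the LP libraries, and passed the threshold without it (adjusted p = 0.0166), with DESeq2 (0.0431), with limma-voom (0.037) and with deposited TPM (0.0166). Cytosolic ribosomal protein genes, set beside the proteasome as another large complex, were higher in LP in 60 of 75 tested genes and higher in HP in 0, with a median of -1.44. Mitochondrial ribosomal protein genes were higher in LP in 30 of 75 and higher in HP in 7, with a median of -0.61. The shares higher in LP were 80.0% and 40.0%, where all genes tested gave 24.1%. Those higher in HP were 0% and 9.33%, where all genes tested gave 27.1%. Whether the proteasome genes differ from these complexes in their shift was not tested.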

How the data were processed

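The authors deposited estimated counts per gene, not scaled between samples, and TPM values scaled to the same total in each library, per the file headers and the values. Per the submitters' processing notes, minimap2 2.17-r941 was used. For the counting tool, genome build and annotation: not given in the sources used here. Estimated counts were rounded to whole numbers, filtered with filterByExpr, scaled with TMM factors and tested in R 4.3.3 with edgeR 4.0.16 (quasi-likelihood test, 3 against 3 samples, Benjamini-Hochberg adjustment over all genes tested, threshold 0.05). CPM of genes use TMM-scaled totals and summed CPM use library totals. Folds are the higher over the lower group. The test was tried on simulated data. Fewer genes were changed there than the 51.2% called here, evenly in both directions, so it does not check the scaling between libraries. With 3 samples per group, p-values rest on the spread between these samples, moderated by edgeR toward a trend over all genes tested. Each SE was computed from the log2 fold change and the test statistic of the edgeR fit. Intervals and floors cover counting error only, since amplified reads are not independent molecules. Alternatives used limma 3.58.1, DESeq2 1.42.0, deposited TPM with a pseudocount of 1 or 0.1, other scalings and filters, and each library left out. Values in every sample are given for called members with a fold of at least 2, for the catalytic subunits and for the 3 non-overlapping members nearest the threshold. Further members shown in this way were chosen after their values were seen. The members and lists were chosen with earlier results of these data known. Promoter motifs and protein sequences were not analysed here. Some genes of the lists are not reported here by name.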

Additional observations from a re-analysis of the deposited data

Results flagged for a closer look

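Some features outside the naming rule are annotated in the deposited table as proteasome proteins and carried counts. LOC101117088, annotated as PSMB6-like, held 200 counts in all and was 5.80-fold higher in HP (21.9, 23.3 and 19.0 CPM in HP against 4.6, 3.63 and 2.65 CPM in LP, adjusted p = 0.00132 in edgeR, adjusted after Benjamini-Hochberg), the opposite direction to PSMB6. LOC101119057, also PSMB6-like, held 143 counts, overlapped between the groups and was not called (log2 fold change 1.17, adjusted p = 0.0666 by the same edgeR test). LOC101113603, annotated as a proteasome maturation protein, held 199 counts and was 2.97-fold higher in LP (8.09, 7.21 and 7.81 CPM in HP against 13.4, 22.3 and 33.4 CPM in LP, adjusted p = 0.0123 by edgeR). LOC114109685, annotated as similar to that protein, held 10 counts and was not tested.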

How the results depend on the processing

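Results were recomputed under 12 other settings and without each of the 6 libraries. PSMD10, PSMD6, PSMA2, PSMC6 and PSMD2 kept their direction and call in all of these. The members higher in HP, 2 as reported, numbered 5 with library totals alone and with no filter on low counts, 4 with limma-voom, and 1 with upper quartile scaling and with deposited TPM at either pseudocount. The members higher in LP, 9 as reported, numbered 5 with library totals and with no filter, and 21 with deposited TPM at either pseudocount. Leaving out 1 library gave 0 to 3 members higher in HP and 5 to 10 higher in LP. Shares over all genes tested are given here only for the main fit and for deposited TPM at a pseudocount of 1. Of the genes around the proteasome, 2 were higher in HP with library totals, and 0 to 1 when a library was left out. Those higher in LP, 19 as reported, numbered 14 with library totals and with no filter, 19 to 24 in the other settings, and 14 to 19 when a library was left out.

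The median of the members was -0.07 with library totals (all genes 0.27), -0.13 with no filter (all genes -0.20), -1.0 and -1.06 with deposited TPM at a pseudocount of 1 and 0.1 (all genes -0.31 and -0.40), and -0.50 with TPM scaled by median ratios (all genes 0.06). With the 10 genes above 1% of any library left out, the summed CPM of the members was 5352 in HP and 5955 in LP. The share of PSMA7 in the LP members was 14.7% of TPM and 12.6% of CPM.

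The sign of several small folds turned. With library totals and with no filter, the log2 fold changes were 0.05 and 0.03 for PSMA1, 0.07 and 0.03 for PSMB3, 0.06 and 0.00 for PSMC4, 0.07 and 0.06 for PSMD3, 0.18 and 0.14 for PSMD11, and 0.13 and 0.07 for PSMD14. With deposited TPM at a pseudocount of 1 and 0.1 they were -0.70 and -0.71 for PSMA3, -0.24 and -0.24 for PSMA7, -0.51 and -0.51 for PSMB4, -0.12 and -0.12 for PSMC1, -0.10 and -0.11 for PSMC5, 1.27 and 1.3 for PSMD5, and 0.24 and 0.25 for PSMD14. With TPM scaled by median ratios, which was chosen after seeing the data, they were 0.12 for PSMA1, -0.17 for PSMA3, 1.79 for PSMD5 and 0.77 for PSMD14. PSMA3 stood at -0.03 with upper quartile scaling and -0.01 without the genes above 1% of any library. PSMB5 had a log2 fold change of 0.00 with deposited TPM and lost its call. The cause was not tested.

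When a library was left out, the sign also turned for PSMA3 (range -0.01 to 0.16), PSMD3 (-0.42 to 0.16), PSMD5 (-0.52 to 0.01) and PSMD11 (-0.19 to 0.01). No paired analysis was possible because the labels give no replicate numbers that tie the groups. PSMD2, PSMG2, PAAF1, PSME2, NFE2L1 and NFE2L2 rest on under 50 counts in each library, and PSMA8 and PSMB11 had too few counts for a test.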

Other observations

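Across the 24 members whose TPM per count followed the library, the log2 fold change had a Spearman's rho of -0.10 and a Pearson's r of -0.15 with their counts per TPM, a value that depends on transcript length. Across all 2783 tested genes of this kind the values were 0.14 and 0.11. Counts per TPM was taken over all 6 libraries, and a count stood for more TPM in LP, so it depends in part on the fold itself. These values cannot tell a link with length from that dependence. The points are genes of the same 6 libraries and are not independent.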
